A study of Mus musculus with 5 samples.

Results

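The 9 genes described here mark B cells and the antibody-secreting plasma cells that arise from them. They are Ighm, Cd79a, Cd79b, Ms4a1, Cd22, Pax5, Pou2af1, Jchain and Mzb1, out of 55397 genes in the expression table. They were chosen by symbol for their known place in the B lineage, in order to ask whether B cells in the tumours could account for a rise of B lineage transcription factors, and of Spib above all. The series holds bulk RNA-seq of dissected liver tumour samples from female C57BL/6N mice, 2 of them Control and 3 with Prox1 overexpression (Prox1 OE). All mice had received, at 8 weeks of age and by hydrodynamic injection into the tail vein, a Sleeping Beauty transposase driven by CMV and transposons for Akt and for the NOTCH intracellular domain with the rtTA activator. Prox1 OE mice also carried FLAG-tagged mouse Prox1 with GFP behind a doxycycline-responsive Tre promoter, and Control mice carried the same vector with GFP and no Prox1. Doxycycline diet (6.25%) began on day 21, for overexpression between weeks 3 and 4. Collection followed either 1 week of Prox1 or a humane endpoint, and the labels do not tell these apart for single tumours. The mice had an intact immune system. Tumour samples were dissected and homogenised for RNA, so that blood, infiltrating cells and any adjacent liver in them were part of each library. The labels call the cells transformed hepatocytes. Albumin, transthyretin and the other 6 hepatocyte genes listed summed to at least 1175730 normalised counts in every library, and leukocyte and erythroid genes were read in every library as well.

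Libraries held 48740863 to 56629477 reads. Values are normalised counts, that is reads divided by a size factor of the library, and 1 read was worth 0.822 to 1.18 normalised counts. Genes with a mean of at least 10 were tested with limma on log2(normalised count + 1), and a gene was called at a Benjamini-Hochberg adjusted p under 0.05 over the 17105 genes tested. Of these, 2933 (17.1%) were called higher and 2769 (16.2%) lower in Prox1 OE, 5702 in all (33.3%). When libraries were scaled to their total count, the split was 1475 higher and 6833 lower, because that scaling moved the median over all genes tested from -0.02 to -0.44 (log2). Prox1 itself was at 4153 and 4664 normalised counts in Control replicates 1 and 2, against 48090, 11113 and 8231 with overexpression (replicates 1, 2 and 3). Each of the latter was above both Control values, with a log2 fold change of 1.90 ± 0.66 (SE, n = 2 and 3) and a limma adjusted p of 0.061, which missed the threshold. Without Prox1 OE replicate 1 the value was 1.12 (adjusted p = 0.0056), and without Prox1 OE replicate 3 it was 2.39 (adjusted p = 0.032).

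B cells recognise antigen with a membrane antibody, the B cell receptor. Its heavy chain is of the IgM class in naive cells and is encoded by Ighm, and it signals through a pair of partner chains, CD79A and CD79B. The factors EBF1 and PAX5 set up and keep the B cell programme. When a B cell becomes a plasma cell, PAX5 is shut off, BLIMP1 (Prdm1) and XBP1 take over, and the cell turns to secretion, which the J chain and MZB1 serve. SPI-B, the product of Spib, is an Ets family factor of B cells that is also known in plasmacytoid dendritic cells and in the M cells of the gut epithelium. The normal liver holds B cells mainly in its blood and portal tracts. In bulk RNA, fewer cells of a type and less RNA per cell cannot be told apart, and this holds for every value below.

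Promoter windows of 250 bases before to 50 bases after the start were taken from a table of RefSeq sequences for 5 of the 9 genes (Pax5, Jchain, Cd79a, Cd22 and Pou2af1) and for Spib, in build GRCm38.p6. Windows of Cd79b, Ms4a1, Mzb1 and Ighm were not analysed here. Starts were taken as in that table, and they differ from the gene spans given below for 2 genes. The Cd22 window (30878979 to 30879278) lies inside the gene span, which runs to 30880342. The Pax5 window (44710645 to 44710944) lies outside the gene span, which runs to 44710487. Letter patterns of B lineage factors were searched on both strands, and none of them contains another. The EBF palindrome (TCCC followed 2 bases later by GGGA) was in the window of Cd22, 49 bases before the start, and in 0.904% of 32851 windows of all genes. The E box CAGGTG, a site type of E proteins such as that of Tcf3, was in 3 of the 5 (Cd22, 245 bases before, Cd79a, 154 bases before, and Jchain, 5 bases after) and in 20.2% of all windows. The octamer ATTTGCAT (1.74% of all windows) and the PU box GAGGAAG (13.6%), read by OCT2 with its partner from Pou2af1 and by Ets factors of the SPI group, were in none of the 5. The windows of the receptor genes Cd22 and Cd79a are shown because they hold matches, and that of Spib because the results turn on it. Capitals mark matches, and the Spib window held no match to any of the patterns.
Cd22, chr7:30878979-30879278, minus strand: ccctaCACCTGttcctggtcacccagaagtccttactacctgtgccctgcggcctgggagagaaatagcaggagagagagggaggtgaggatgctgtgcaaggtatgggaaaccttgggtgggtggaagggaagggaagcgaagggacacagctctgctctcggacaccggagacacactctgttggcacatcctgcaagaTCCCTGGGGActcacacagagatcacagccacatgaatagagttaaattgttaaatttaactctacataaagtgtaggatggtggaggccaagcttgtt
Cd79a, chr7:24897247-24897546, plus strand: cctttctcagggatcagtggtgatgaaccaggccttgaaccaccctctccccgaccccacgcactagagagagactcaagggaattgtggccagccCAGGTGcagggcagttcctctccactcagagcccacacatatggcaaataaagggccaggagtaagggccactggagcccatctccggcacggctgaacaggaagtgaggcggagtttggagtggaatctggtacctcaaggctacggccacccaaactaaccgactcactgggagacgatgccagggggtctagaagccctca
Spib, chr7:44532022-44532321, minus strand: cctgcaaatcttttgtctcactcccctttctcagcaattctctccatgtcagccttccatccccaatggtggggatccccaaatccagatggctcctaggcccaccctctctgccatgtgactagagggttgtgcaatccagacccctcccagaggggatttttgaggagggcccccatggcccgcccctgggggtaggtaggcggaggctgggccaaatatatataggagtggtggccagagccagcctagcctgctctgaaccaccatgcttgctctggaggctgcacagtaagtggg
A match of letters describes the sequence only, and binding was not measured.

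Ighm, Cd22 and Cd79b, genes of the B cell receptor and its inhibitor, rose by 1.87- to 2.65-fold. Cd79a, Pax5, Pou2af1, Jchain and Mzb1 did not pass the test, with folds of the means of 1.02 (Mzb1) to 2.19 (Jchain). Of the 9 genes, 8 were abundant enough to be tested. Of these 8, 3 (Ighm, Cd22 and Cd79b) were called higher, 0 lower and 5 neither, beside 17.1% of all genes tested called higher and 16.2% lower. limma gave 0 lower at an unadjusted p under 0.05 too. The count test of edgeR and that of DESeq2, run on whole reads, each called the same 3 genes higher and 0 lower, beside 18% and 20.3% of all genes called higher and 15.7% and 18.6% called lower. The median log2 fold change of the 8 tested genes by limma was 0.93, and 0.90 over the 7 other than Pax5, which reached the minimum only through Prox1 OE, against -0.02 for all genes tested. The group means were higher in Prox1 OE for 9 of 9 genes, by 1.02-fold (Mzb1, whose mean on the log2 scale was lower) to 2.65-fold (Ighm). For 6 of the 8 tested genes every Prox1 OE library was above both Control libraries, as for 30.9% of all genes tested (5 of the 7 other than Pax5), and the reverse order was seen for none of the 8 and for 32.4% of all genes. With total count scaling 6 of the 8 had a positive fold change and only Ighm was called. Without Control replicate 1 or without Control replicate 2, 0 of the 8 were called by limma (3 and 2 at an unadjusted p under 0.05), in fits where the genes called higher fell to 681 and 1436 of all genes.

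**Figure D1:**
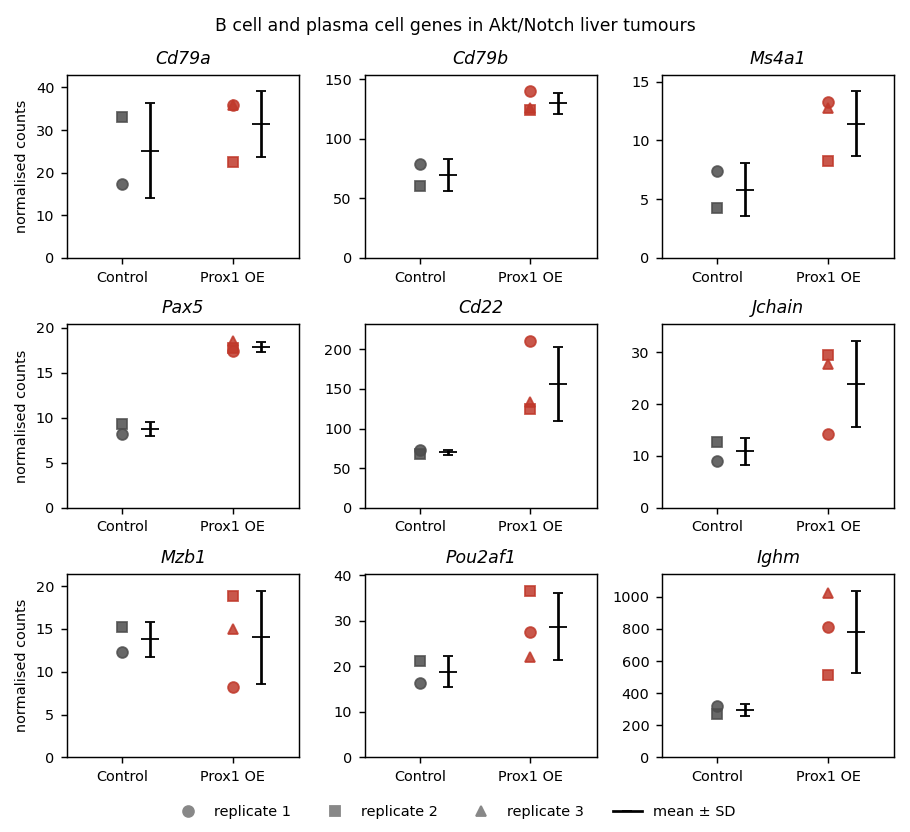
Normalised counts of each of the 9 B cell and plasma cell genes (y axis, starting at 0, scale differs between panels) in the 2 Control and 3 Prox1 OE libraries, with points for libraries and bars for the group mean ± SD. Ighm runs from 269 to 322 in Control and from 514 to 1022 in Prox1 OE, while the groups overlap for Cd79a and Mzb1.

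Ighm (ENSMUSG00000076617, chromosome 12, 113418558 to 113422730, minus strand, mm10), the constant region of the IgM heavy chain, had the highest level of the 9 genes per kilobase of exon. It stood at 322 and 269 normalised counts in Control and at 810, 514 and 1022 in Prox1 OE. All Prox1 OE values were above both Control values, and Prox1 OE replicate 2 was the lowest of the 3. The means were 295 ± 37.7 (SD, n = 2) and 782 ± 255 (SD, n = 3), and the log2 difference was 1.35 ± 0.28 (SE, limma adjusted p = 0.011). Without Control replicate 1 the adjusted p was 0.064, and without Control replicate 2 it was 0.079.

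Cd79b (ENSMUSG00000040592, chromosome 11, 106311341 to 106314762, minus strand) encodes a signalling chain of the receptor. It was at 78.9 and 60.2 normalised counts in Control and at 140, 124 and 126 in Prox1 OE. The groups were apart and the Prox1 OE libraries were close to each other. The log2 difference was 0.90 ± 0.24 (SE, n = 2 and 3, limma adjusted p = 0.025). The call was lost with total count scaling (0.48, adjusted p = 0.19) and in each fit that left out a library other than Prox1 OE replicate 1, with adjusted p-values of 0.098 and 0.2 without Control replicates 1 and 2 and of 0.062 and 0.055 without Prox1 OE replicates 2 and 3.

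Cd79a (ENSMUSG00000003379, chromosome 7, 24897381 to 24902197, plus strand), the partner chain of Cd79b, did not separate the groups. Its normalised counts were 17.3 and 33.1 in Control and 35.8, 22.4 and 35.9 in Prox1 OE, from 19 to 39 reads a library. Prox1 OE replicate 2 lay between the Control libraries. The fold change on the log2 scale was 0.35 ± 0.43 (SE, limma adjusted p = 0.56), and it was -0.10 without Control replicate 1 and -0.07 with total count scaling.

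Cd22 (ENSMUSG00000030577, chromosome 7, 30865402 to 30880342, minus strand) is a lectin that dampens receptor signalling. Control libraries had 72.3 and 67.8 normalised counts, and Prox1 OE libraries had 211, 125 and 133. The groups were apart, with Prox1 OE replicate 1 above its group. The log2 difference was 1.11 ± 0.29 (SE, n = 2 and 3, limma adjusted p = 0.023), and it was 0.68 (adjusted p = 0.11) with total count scaling, and without either Control library the adjusted p was 0.13. Ms4a1 (ENSMUSG00000024673, chromosome 19, 11249675 to 11266241, minus strand), which encodes CD20, was below the level needed for the test. It had 7.39 and 4.24 normalised counts in Control and 13.3, 8.26 and 12.7 in Prox1 OE, from 5 to 13 reads a library. Its values did not overlap, and in a fit with no filter the log2 difference was 0.88 ± 0.51 (SE, limma adjusted p = 0.31). Genes annotated across Cd22 and Ms4a1 on the opposite strand had at most 4 reads in any library.

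The regulators among the 9 genes were Pax5 and Pou2af1. Pax5 (ENSMUSG00000014030, chromosome 4, 44524757 to 44710487, minus strand), the B cell identity factor, was at 8.22 and 9.32 normalised counts in Control and at 17.4, 17.7 and 18.5 in Prox1 OE. Values within each group were close, but they rested on 10 to 17 reads a library, and the Control mean of 8.77 was under the minimum, so that the gene was tested only through its Prox1 OE values. The log2 difference was 0.95 ± 0.41 (SE, limma adjusted p = 0.11), and only limma without the mean-variance trend called it (adjusted p = 0.018). Pou2af1 (ENSMUSG00000032053, chromosome 9, 51213708 to 51240080, plus strand) encodes the coactivator OBF1, which works with octamer factors on immunoglobulin promoters. Its values were 16.4 and 21.2 in Control and 27.6, 36.6 and 22.0 in Prox1 OE. They did not overlap, though the lowest Prox1 OE library was just above the highest Control library, and the log2 fold change of 0.57 ± 0.39 (SE) was not called (limma adjusted p = 0.29).

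Jchain and Mzb1 serve antibody secretion. Jchain (ENSMUSG00000067149, chromosome 5, 88519809 to 88527891, minus strand) links IgM and IgA into polymers, and had 9.04 and 12.7 normalised counts in Control and 14.3, 29.5 and 27.8 in Prox1 OE. Prox1 OE replicate 1 was close to the Control libraries and the other 2 were higher. The fold change on the log2 scale was 1.02 ± 0.47 (SE, limma adjusted p = 0.13), and without Prox1 OE replicate 1 it was 1.34 (adjusted p = 0.041). Mzb1 (ENSMUSG00000024353), a chaperone of the endoplasmic reticulum that helps to assemble antibody, had 12.3 and 15.3 in Control and 8.18, 18.9 and 15.0 in Prox1 OE. The groups overlapped, with Prox1 OE replicate 1 the lowest of the 5 libraries. Its fold change on the log2 scale was -0.04 ± 0.49 (SE, limma adjusted p = 0.96), and its sign changed with upper-quartile scaling, edgeR and DESeq2 (0.03 in each).

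Other immunoglobulin genes were read against Ighm. Of 11 further constant region genes 6 were tested, of which 2 (Igkc and Igha) were called higher and 0 lower, beside 17.1% and 16.2% of all genes tested. The median log2 fold change was 1.11, and 0.80 over the 5 other than Ighg2b, which reached the minimum only through its Prox1 OE values. Igkc, the constant region of the kappa light chain, was at 65.7 and 92.4 normalised counts in Control and at 151, 225 and 277 in Prox1 OE. All Prox1 OE values were higher, with a log2 fold change of 1.43 ± 0.31 (SE, limma adjusted p = 0.013), and the adjusted p was 0.12 without Control replicate 1 and 0.052 without Prox1 OE replicate 2. Igha, the heavy chain of the IgA of mucosal surfaces, was at 8.22 and 18.6 in Control and at 49.1, 158 and 91.4 in Prox1 OE. This was the largest change among the immunoglobulin genes tested, with a log2 fold change of 2.75 ± 0.55 (SE, limma adjusted p = 0.01), or 2.20 (adjusted p = 0.087) without Control replicate 1. Per kilobase, the ratio of Ighm to Igkc was 1.38 and 0.82 in Control and 1.51, 0.64 and 1.04 in Prox1 OE, so the ranges overlapped.

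Of 390 to 1053 heavy chain constant reads a library, Ighm took 87.7% and 81.3% in Control and 87.2%, 69.3% and 83.9% in Prox1 OE. Igha took 2.24% (Wilson 95% interval 1.22 to 4.07) and 5.64% (3.75 to 8.39) in Control, and 5.29% (4.01 to 6.94), 21.3% (18.3 to 24.7) and 7.50% (6.06 to 9.25) in Prox1 OE. Prox1 OE replicate 2 stood apart in both shares, and the other libraries overlapped between the groups. These intervals cover counting error only. Variable segments, which differ between B cell clones, were thinly read. The 113 heavy chain variable genes had 8 and 15 reads in Control and 28, 23 and 12 in Prox1 OE, against 317 to 883 reads of Ighm. The 100 kappa variable genes had 31 and 27 reads in Control and 56, 29 and 80 in Prox1 OE. The reads overlapped between the groups for both. After normalisation they did not, at 6.57 and 12.7 against 28.6, 27.1 and 13.9 normalised counts for the heavy chain and at 25.5 and 22.9 against 57.3, 34.2 and 92.6 for kappa. The 3 lambda variable genes were lower in Prox1 OE, at 4.93 and 8.48 normalised counts against 3.07, 2.36 and 4.63, from 2 to 10 reads. How the counting treated reads shared by near-identical segments is not given in the sources used here.

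Spib had a larger fold change than each of the 9 genes. It was at 142 and 93.2 normalised counts in Control and at 8114, 3310 and 2314 in Prox1 OE. All 3 Prox1 OE libraries were far above both Control libraries, and Prox1 OE replicate 1 was the highest library for both Spib and Prox1. The log2 difference was 5.09 ± 0.48 (SE, n = 2 and 3, limma adjusted p = 0.0021), and the ratio of the lowest Prox1 OE to the highest Control library was 16.3. On average Spib stood at 118 ± 34.6 in Control (SD, n = 2) against 4579 ± 3102 in Prox1 OE (SD, n = 3). The largest ratio between any Prox1 OE and any Control library among the 9 genes was 3.80, for Ighm. Spib was called in every alternative setting.

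Of 20 B lineage transcription factors tested, Pax5 and Pou2af1 among them, 2 were called higher (Spib and Id3), 2 lower (Ebf1 and Ets1) and 16 neither, beside 17.1% and 16.2% of all genes tested, with a median log2 fold change of 0.15 (0.14 over the 19 other than Pax5). Id3, an inhibitor of E proteins that many cell types express, was at 3746 and 3627 normalised counts in Control and at 5363, 5236 and 5427 in Prox1 OE. Its fold change on the log2 scale was 0.53 ± 0.10 (SE, limma adjusted p = 0.0085), lost with total count scaling (0.10, adjusted p = 0.53) and without either Control library (adjusted p = 0.09 in both). Ebf1, a pioneer of the B cell programme that also acts in stromal and fat cells, was at 198 and 164 in Control and lower in Prox1 OE, at 101, 124 and 79.9. Its fold change on the log2 scale was -0.84 ± 0.26 (SE, limma adjusted p = 0.042), and the adjusted p was above the threshold in 9 alternative settings, 0.28 and 0.13 without Control replicates 1 and 2 and 0.054 and 0.093 without Prox1 OE replicates 1 and 3, 0.061 with upper-quartile factors, 0.073 with no filter, 0.051 with no trend and with edgeR, and 0.071 with the replicate block. Ets1, an Ets factor of lymphocytes and endothelium, had a log2 fold change of -0.54 ± 0.12 (SE, limma adjusted p = 0.014), with adjusted p-values of 0.066 and 0.15 without Control replicates 1 and 2.

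The closest relative of Spib, Spi1 (PU.1, a factor of myeloid and B cells), had 623 and 430 normalised counts in Control and 948, 676 and 721 in Prox1 OE. The groups did not overlap, and the log2 fold change of 0.58 ± 0.22 (SE) was not called (limma adjusted p = 0.077). It was called with DESeq2 (0.58, adjusted p = 0.049) and with the replicate block, which drops Prox1 OE replicate 3 (0.63, adjusted p = 0.016). The plasma cell regulators Irf4 (-0.38), Prdm1 (-0.29) and Xbp1 (0.17) were not called either. Pax5 had the next largest log2 fold change of the 20 after Spib, at 0.95.

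**Figure D2:**
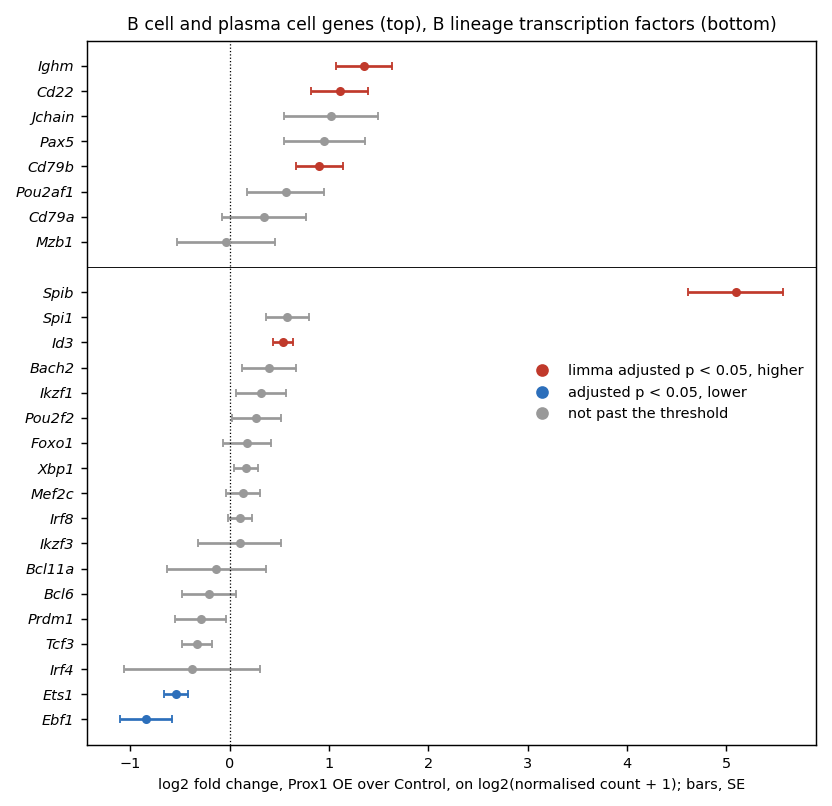
Log2 fold change of Prox1 OE over Control ± SE (x axis) for the B cell and plasma cell genes that were tested and for 20 B lineage transcription factors. Spib lies at 5.09, while the tested B cell and plasma cell genes lie between -0.04 and 1.35.

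Levels per kilobase of exon allow Spib to be set beside the 9 genes within a library. Spib was at 49.6 and 32.5 normalised counts per kilobase in Control and at 2829, 1154 and 807 in Prox1 OE. Ighm was at 171 and 142 in Control and at 429, 273 and 542 in Prox1 OE. Spib was therefore below Ighm in both Control libraries, at 0.29 and 0.228 of its level, and above it in the Prox1 OE libraries, at 6.59, 4.23 and 1.49 times its level.

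Against Cd79b, the next of the 9 genes per kilobase, Spib was at 0.899 and 0.773 times its level in Control and at 28.9, 13.3 and 9.15 times in Prox1 OE. Across the 9 genes, the log2 ratio of Spib to the gene was higher in Prox1 OE by 3.74 (Ighm) to 5.13 (Mzb1). The rise of Spib was known when these genes were chosen, and with 2 libraries against 3 an exact permutation test cannot go below a two-sided p of 0.2, so the ratios are a description with no test.

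**Figure D3:**
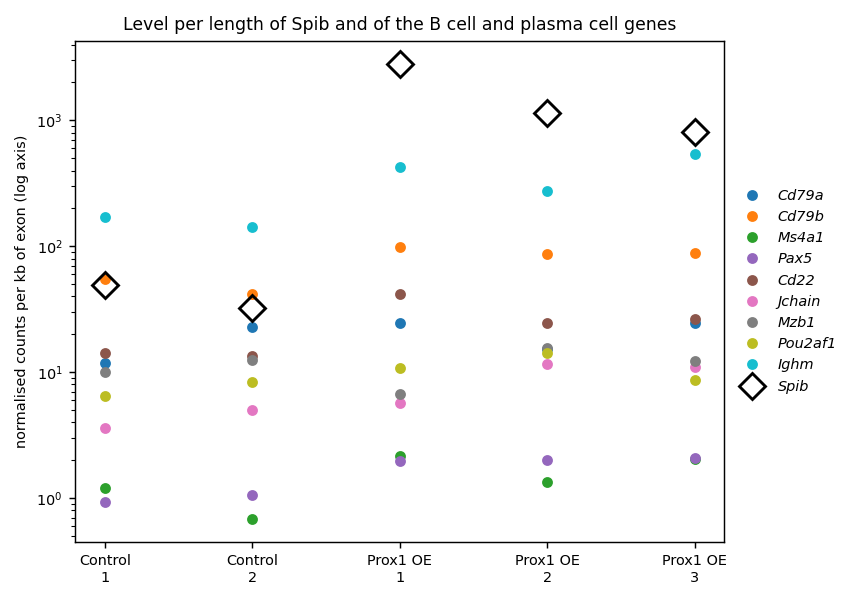
Normalised counts per kilobase of exon (y axis, log scale) of Spib and of the B cell and plasma cell genes in each of the 5 libraries (x axis). Spib lies under Ighm in both Control libraries (49.6 and 32.5 against 171 and 142) and over it in the 3 Prox1 OE libraries.

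Of 12 other B cell surface genes 9 were tested, with 3 called higher (Ly6d, Cd72 and Cd37) and 0 lower, beside 17.1% and 16.2% of all genes tested. Their median log2 fold change was 0.84, and in 7 of the 9 every Prox1 OE library was above both Control libraries, as for 30.9% of all genes tested. Of these 9, Fcer2a and Fcmr reached the minimum only through Prox1 OE, and over the other 7 the median was 0.84 and the groups were apart in 5. Ly6d, which marks early B cells and is also made by epithelia, rose from 7642 and 8759 to 24180, 26723 and 25620, a log2 fold change of 1.64 ± 0.13 (SE, limma adjusted p = 0.0015). Of the B cell surface genes tested it was the one at 7642 normalised counts or more in every library. The call of Cd72 was lost when any library other than Prox1 OE replicate 1 was left out (adjusted p of 0.051 to 0.24), and that of Cd37 without Control replicate 1, Control replicate 2 or Prox1 OE replicate 2 (0.076 to 0.19). Both were lost with total count scaling (log2 fold changes of 0.20 and 0.41, adjusted p of 0.45 and 0.24), and Cd72 without the trend too (0.061). Fcrla, an intracellular Fc receptor relative of B cells, went from 13.1 and 10.2 to 23.5, 26.0 and 49.8 and was not called (log2 fold change 1.36 ± 0.45, SE, limma adjusted p = 0.054), but it was called with edgeR (adjusted p = 0.049), DESeq2 (0.041), upper-quartile factors (0.047), limma without trend (0.049) and without Prox1 OE replicate 1 (0.04).

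In B cell receptor signalling, 1 of 14 genes was called higher and 0 lower, beside 17.1% and 16.2% of all genes tested, which is also the background for the lists that follow, and the median log2 fold change was 0.20. The called gene was Ptpn6, a phosphatase of blood cells (0.58 ± 0.12, SE, limma adjusted p = 0.011, 0.099 and 0.09 without Control replicates 1 and 2, and 0.44 with total count scaling), and the adaptor Pik3ap1 had a value of -0.58 ± 0.19 that was not called (limma adjusted p = 0.055), except with DESeq2 (0.03), with total count scaling (0.0064) and without Prox1 OE replicate 1 (-0.77, 0.0057). Pik3ap1 was at 9168 normalised counts or more in every library, against at most 35.9 for Cd79a. Which cells made the RNA of this list was not tested. Of 11 further plasma cell genes 10 were tested, with 3 higher (Sdc1, Fkbp11 and Edem1), 0 lower and a median of 0.08. Sdc1 and the secretory genes Fkbp11 and Edem1 are also expressed by epithelial and secretory cells, and Sdc1 was at 9886 normalised counts or more in every library. The calls of Sdc1 and Fkbp11 were lost when any library other than Prox1 OE replicate 1 was left out (adjusted p of 0.056 to 0.26 and of 0.09 to 0.23), and that of Edem1 when any other than Prox1 OE replicate 2 was (0.056 to 0.27). All 3 were lost with total count scaling (0.05, 0.30 and 0.05, adjusted p of 0.78, 0.24 and 0.78) and without the trend (0.055, 0.08 and 0.095). With no filter Fkbp11 (0.061) and Edem1 (0.075) were lost, and with the replicate block Edem1 (0.093). Tnfrsf17, the survival receptor of plasma cells, had 1 read in 1 Prox1 OE library and 0 in the other 4. Of 8 germinal centre genes 6 were tested, with 2 higher (Fas and Cd83, with log2 fold changes of 1.09 and 1.02), 0 lower and a median of -0.03. Both are also expressed outside the germinal centre, and neither was called without Control replicate 1 (adjusted p of 0.066 and 0.05).

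Of 12 factors that draw or keep B cells 9 were tested, with 2 higher (Cxcl12 and Ccl21a), 0 lower and a median log2 fold change of 0.14, also over the 7 that reached the minimum in both groups. Cxcl12, a stromal chemokine for lymphocytes, had a log2 fold change of 0.76 ± 0.21 (SE, limma adjusted p = 0.032), with adjusted p-values of 0.23 and 0.074 without Control replicates 1 and 2 and of 0.081 without Prox1 OE replicate 2. It was also lost with total count scaling (0.33, adjusted p = 0.15), no filter (0.059) and no trend (0.083). Ccl21a, a chemokine of lymphoid stroma and lymphatic vessels, had 1 read in each Control library and 22.5, 28.3 and 26.6 normalised counts in Prox1 OE. That is at least 10.1-fold higher than a floor of 3 reads in a library. It passed the filter only through Prox1 OE, and its near-identical copies make the count uncertain.

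Other cell type lists moved in the same libraries, and their part in the values of the B cell genes was not tested. Of 12 T cell genes 7 were called higher and 0 lower, with a median log2 fold change of 1.17 and summed normalised counts of 680 to 757 in Control against 1050 to 1372 in Prox1 OE. Cd8a, the T cell coreceptor, went from 32.0 and 19.5 to 60.3, 150 and 109 (log2 fold change 1.95 ± 0.44, limma adjusted p = 0.014, and 0.057, 0.1 and 0.052 without Control replicate 1, Control replicate 2 and Prox1 OE replicate 2). Of 10 pan leukocyte genes 3 were called higher and 0 lower (median 0.47, sums of 14092 to 16965 and of 19076 to 24065). Kupffer cell genes, those of the resident liver macrophage, were called higher for 6 of 10 and lower for 0 (median 0.90, sums of 26718 to 27777 and of 45341 to 59815). Hepatocyte genes were called higher for 6 of 8 and lower for 0, with a median of 1.65 and sums of 1175730 to 1733770 and of 3553250 to 5111210. Erythroid genes, a measure of blood, were called higher for 1 of 6 and lower for 0 (median 0.91, with 1 of the 6 reaching the minimum only through Prox1 OE, sums of 4941 to 7498 and of 8407 to 17945). The sums of each of these lists did not overlap between the groups, as was the case for the sum of the 9 B cell and plasma cell genes (492 to 544 and 897 to 1413). No share over all genes was computed for sums, and 30.9% of single genes tested were apart in this direction. A sum weighs the most abundant genes of its list most, C1qb and C1qa for Kupffer cells and Alb and Trf for hepatocytes. The genes of the injected tumour drivers were lower in the same libraries. Akt1 was at 57782 and 55267 normalised counts in Control and at 30413, 29720 and 22530 in Prox1 OE (log2 fold change -1.05 ± 0.18, SE, limma adjusted p = 0.0057), and Notch1 at 13002 and 11967 against 7027, 5094 and 4524 (-1.19 ± 0.19, SE, limma adjusted p = 0.0046). Without Control replicate 1 the adjusted p-values were 0.069 and 0.053. Total count scaling lowers all these fold changes along with that of the median gene.

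The other cell types known for Spib were read by their own markers. Of 12 plasmacytoid dendritic cell genes 4 were called higher and 1 lower, with a median log2 fold change of 0.92 (0.70 over the 9 other than Ccr9, Klk1 and Klra17, which reached the minimum only through Prox1 OE) and sums of 10298 to 10766 in Control and of 17491 to 26985 in Prox1 OE. Siglech, their surface lectin, was at 14.0 and 11.9 normalised counts in Control and at 31.7, 33.0 and 48.6 in Prox1 OE. Its fold change on the log2 scale was 1.46 ± 0.37 (SE, limma adjusted p = 0.023), and it was not called when any library other than Prox1 OE replicate 1 was left out (adjusted p of 0.054 to 0.12) or with the replicate block (0.075) or total count scaling (0.052). Bst2 and Irf7, which many cells make in response to interferon, held most of the sum, at 5781 and 5934 against 10760, 13431 and 18938 for Bst2. Tcf4, the main regulator of these cells, was lower at 1647 and 1737 against 1292, 1286 and 1358 normalised counts (log2 fold change -0.37 ± 0.11, SE, limma adjusted p = 0.04), a call lost when any library other than Prox1 OE replicate 1 was left out (0.064 to 0.26), with upper-quartile factors (0.081), no filter (0.06), no trend (0.075) and the replicate block (0.069). Runx2, another of their factors, was at 69.8 and 67.0 against 54.2, 35.4 and 39.3 and was not called (-0.68 ± 0.30, limma adjusted p = 0.12), except without Prox1 OE replicate 1 (-0.86, adjusted p = 0.046) and with total count scaling. Tcf4 and Runx2 were the only 2 of the 12 with every Prox1 OE library below both Control libraries. The reverse held for 7 of the 12 (6 of the 9), beside 32.4% lower and 30.9% higher of all genes tested. Tcf4 was at 1286 normalised counts or more in every library, against at most 48.6 for Siglech, and which cells made it was not tested. Of 10 M cell genes, Spib included, 3 were called higher and 4 lower, with a median of -0.43. Spib is itself among the 3 called higher and is part of this median. Gp2, the M cell receptor for bacteria, fell from 39158 and 43952 to 513, 76.7 and 48.6, a log2 fold change of -8.37 ± 0.86 (SE, limma adjusted p = 0.0023). None of the genes in these 2 lists was at 0 in every library, as for 28705 of the 55397 genes. This does not show that either cell type was present.

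**Figure D4:**
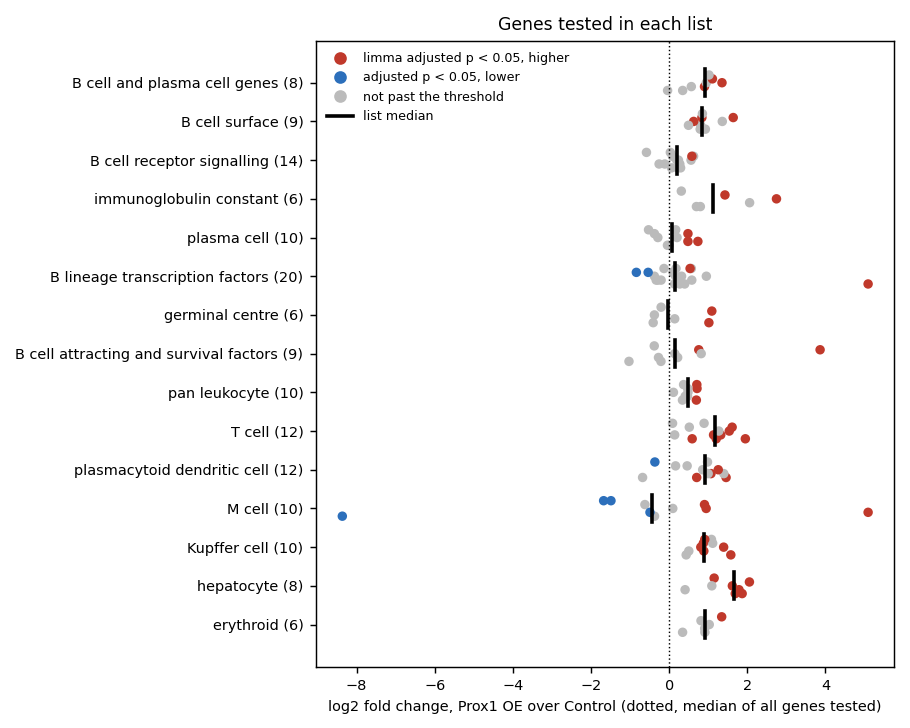
Log2 fold change of Prox1 OE over Control (x axis) of each tested gene in 15 lists of B cell and other cell type genes, with the number tested in brackets, colour for calls and a bar for the list median. The B cell and plasma cell genes have a median of 0.93, beside 1.17 for T cell, 0.90 for Kupffer cell and 1.65 for hepatocyte genes.

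The genes whose profile over the 5 libraries was most like the mean profile of Cd79a, Cd79b, Ms4a1 and Cd22 were sought among 13958 genes with a mean of at least 50 outside all lists. Closeness was the root-mean-square distance of centred log2 values. The 8 nearest were Themis2 (0.027), Abcc4 (0.047), Abcg2 (0.047), Ugp2 (0.050), Susd1 (0.059), Gpr157 (0.059), Aldh3a2 (0.067) and Pcca (0.069). Themis2 is a signalling protein of B cells and macrophages. It was at 278 and 277 normalised counts in Control and at 575, 408 and 503 in Prox1 OE. Ugp2, Aldh3a2 and Pcca are metabolic enzymes that the liver expresses, and Abcc4 and Abcg2 are transporters. With 5 libraries in 2 groups, many genes share such a profile, and the likeness is a description.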

How the data were processed

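The data were 2 Control and 3 Prox1 OE bulk RNA-seq libraries, paired 100-base dUTP libraries mapped by the authors with STAR to mm10. The deposited table holds a signal per gene, which is its reads over a size factor from DESeq2, and every value was a whole multiple of 1 read (100% within 0.01 reads), so whole reads were recovered. The counting tool and its use of strand are not given in the sources used here. The authors' table of their own comparison (means, fold changes and p-values) was not used. Of 55397 identifiers, 55137 (99.5%) matched GENCODE M21, which gave symbols, positions and exon lengths.

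limma 3.58.1 (R 4.3.3; lmFit, eBayes with trend, two-sided) was run on log2(normalised count + 1) of genes with a mean of at least 10, which understates changes of low genes. Adjustment was Benjamini-Hochberg over 17105 genes at 0.05. Groups came from sample titles. The labels do not say that replicates were separate mice, so p-values measure the spread between these samples. The procedure was tested on simulated data. Alternatives were TMM, upper-quartile and total count scaling, pseudocounts of 0.1 and 10, a minimum mean of 50 or none, no trend, edgeR 4.0.16 and DESeq2 1.42.0 on recovered reads, a replicate block, and each library left out.

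The 9 genes and all lists were chosen with earlier results of these data known. Genes named were the 9 genes, the transcription factors, Prox1, and of every other list at most 4 (the 2 highest means and the 2 largest changes). Cd37, Ptpn6, Edem1, Tcf4, Runx2 and Tnfrsf17 were named after their values were seen, and other called genes stand as counts. Fcer2a, Fcmr, Klk1 and Klra17 were named only for how they passed the filter, and transthyretin only as an example of its list. All these names come on top of the 4 for a list.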

Additional observations from a re-analysis of the deposited data

How the results depend on the processing

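Spib kept its direction and its call in all 16 alternative settings, with log2 fold changes of 4.58 to 5.48. With total count as library size, 1 of the B cell and plasma cell genes and 1 transcription factor were called higher and 3 transcription factors lower, beside 1475 genes called higher and 6833 lower. Relative to the median of all genes in that setting, the log2 fold changes were 1.36 for Ighm, 1.12 for Cd22 and 0.92 for Cd79b. With each library left out in turn, 681 to 3738 genes were called higher and 477 to 3753 lower. The same fits called 0 to 4 of the B cell and plasma cell genes higher and 0 lower, and 1 to 2 transcription factors higher and 0 to 2 lower. The low counts came without a Control library, which leaves 1 Control sample, assumed to vary like the other group. Transcription factors called lower numbered 1 with upper-quartile factors, no filter, limma without trend, edgeR and the replicate block, and those called higher numbered 3 with limma without trend, DESeq2 and the replicate block.

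Prox1 had a log2 fold change of 2.36 with edgeR (adjusted p = 0.047) and of 1.12 to 2.39 with a library left out. Signs changed for Mzb1 (0.032 with upper-quartile factors, 0.033 with edgeR, 0.026 with DESeq2, -0.28 to 0.28 with a library left out), Cd79a (-0.070 with total count, -0.10 to 0.80 with a library left out), Xbp1 (-0.26 with total count) and Irf4 (-1.004 to 0.24 with a library left out), none of them called. Relative to the median of all genes, which total count scaling lowers, Xbp1 was at 0.18 and Cd79a at 0.37 in that setting. The causes of the other sign changes were not tested. Replicate numbers are shared between the groups, but nothing in the labels pairs them, and deviations of same-numbered libraries correlated at 0.14 and 0.02. With the replicate block, which drops Prox1 OE replicate 3, 3 of the B cell and plasma cell genes were called higher, and Prox1 was at 2.39 (adjusted p = 0.0013). Of 684 values for 44 single genes over the alternatives, 570 kept their direction and side of the threshold, 91 lost a call, 14 gained one and 9 changed sign. Depth limits Ms4a1, Pax5, Jchain and Mzb1 most, which had 5 to 25 reads a library.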
